A study of Arabidopsis thaliana with 6 samples.

Results

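Of the 531 genes that the authors listed as higher in the mrg1 mrg2 double mutant, 66 had a mean of fewer than 10 raw reads over the 3 libraries of the Col-0 wild type. These 66 genes, of 552 listed in either direction, are described here. They were chosen by their Col-0 counts and by the authors' listing, so the difference between the genotypes is given as a description and without a test. In the mutant their means ran from 7.25 to 203 normalized counts (reads divided by a size factor per library), with a median of 23.3, and in Col-0 from 0 to 9.69, with a median of 3.87. The 66 genes encode mostly enzymes, F-box and other ubiquitin pathway proteins, receptor kinases and lectins, cytochromes P450 and proteins of unknown function; 5 are noncoding RNA genes and 2 are mitochondrial. In their AGI codes, the digit after AT gives the chromosome, M stands for the mitochondrion, and the last digits give the order along the chromosome.

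The mrg1 mrg2 double mutant, in the Columbia-0 (Col-0) background of Arabidopsis thaliana, was compared with wild-type Col-0. Each genotype had 3 libraries, numbered by replicate and made from independent experiments, of leaves and stem of seedlings aged 12 days. The plants were kept on soil at 22 °C in long days (16 h light, 8 h dark) and sampled at ZT8, 8 h after lights on. The labels name neither the mrg1 and mrg2 alleles nor the number of seedlings pooled per library. MRG2, one of the mutated genes, had 188, 111 and 96 reads in mrg1 mrg2, against 437, 380 and 403 in Col-0; MRG1 was not among the listed genes, so that side of the genotype was not checked here.

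MRG1 and MRG2 are related chromodomain proteins that bind methylated histone H3 on transcribed genes and are known to work with histone acetyltransferases in flowering time control. Many plant genes give almost no RNA in seedling leaves because they are used in other organs, such as pollen, endosperm or roots, or only after stress; DNA methylation and Polycomb proteins keep some of them repressed. In whole aerial parts, more RNA per cell and more cells with that RNA cannot be told apart.

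Every one of the 66 genes had a higher normalized count in each mutant library than in any Col-0 library, which held for 99.8% of the 531 higher genes (530 genes) and says little about these members. The authors listed 531 genes as higher, 2.31% of the 22995 genes inferred to have been tested. By the same inference, 195 genes had adjusted p-values within the range of the listed genes but were not listed. Absence from the lists therefore does not show that a gene had a larger adjusted p-value. In 61 of the 66 the lowest mutant library held at least 2 times the normalized count of the highest Col-0 library, and in 25 at least 4 times. Among the other 465 higher genes, 55 (11.8%) reached 2 times and 7 reached 4 times. The choice of members by low Col-0 counts builds in such a gap, so it is given as a description. The 66 genes together summed to 1882, 1918 and 1844 normalized counts in mutant replicates 1, 2 and 3, against 305, 250 and 261 in Col-0 replicates 1, 2 and 3. The mutant sums lay close to each other, and each was far above every Col-0 sum.

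**Figure D1:**
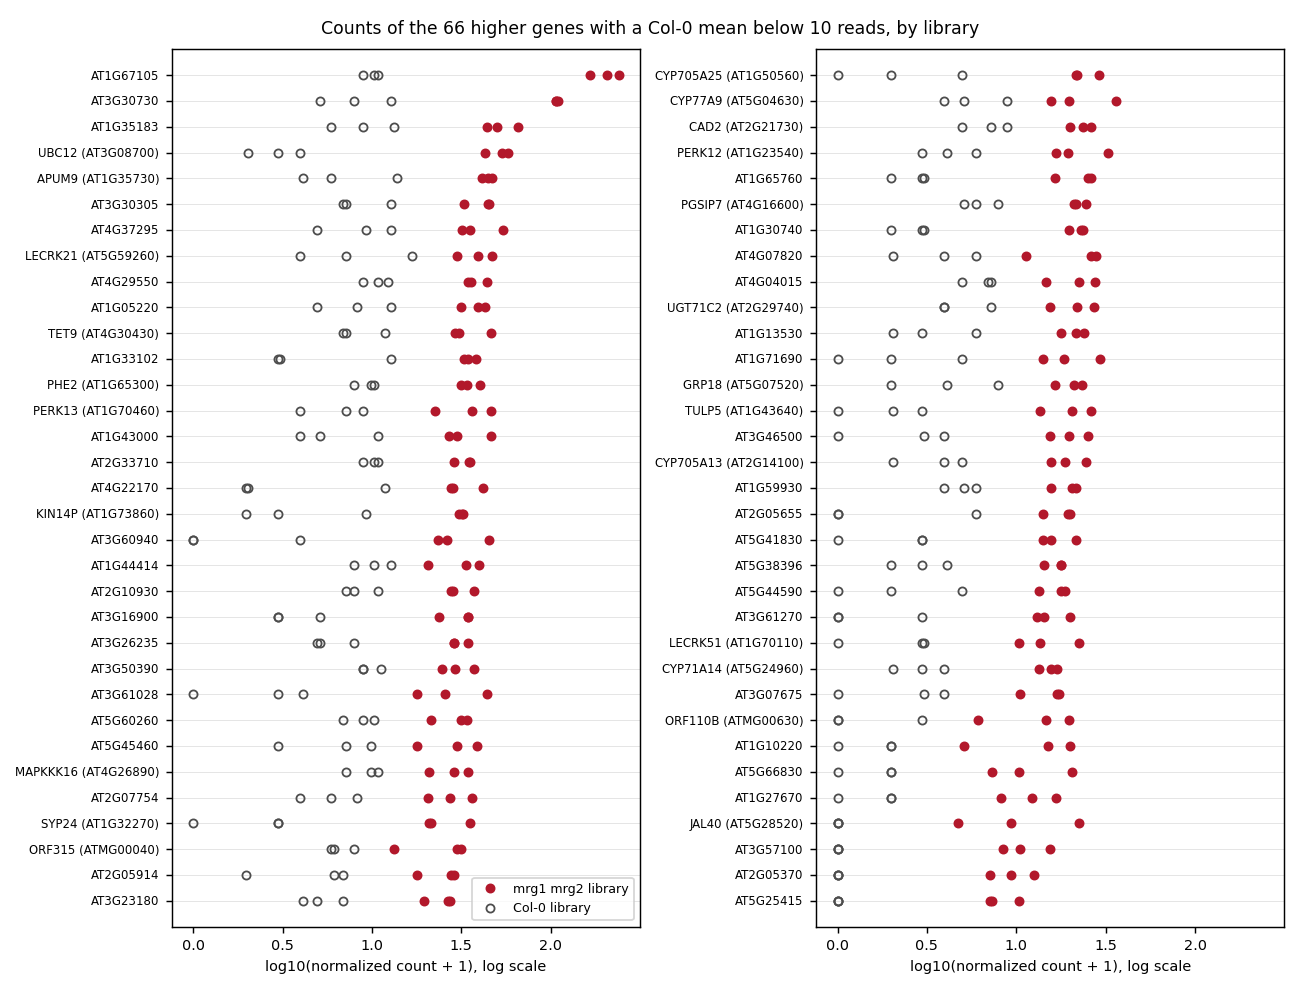
Each row is 1 of the 66 genes, ordered by mutant mean; filled points are the 3 mrg1 mrg2 libraries and open points the 3 Col-0 libraries, on the x axis as log10(normalized count + 1). No row overlaps, and the mutant points of AT1G67105, up to 233 raw reads, stand farthest to the right.

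Median changes were larger than among the other higher genes. The median log2 change in the authors' deposited table was 2.81 for the 66 genes and 1.01 for the other 465, and the smallest was 1.70 and 0.59. On the log2(normalized count + 1) scale the median of the 66 genes was 2.47, against 1.01 for the others, and 52 of the 66 differed by at least 4-fold, against 13.2% of all 531 higher genes (70 genes). A change of at least 4-fold was given in the authors' deposited table for 57 of the 66 genes, against 15.1% of all 531 higher genes (80 genes). The Col-0 counts of this same contrast chose the members, so nothing is read from these changes and shares. The adjusted p-values in the authors' deposited table lay between 4.45e-31 and 0.0484 for the members, and 28 of the 66 were above 0.01, against 169 of the other 465.

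**Figure D2:**
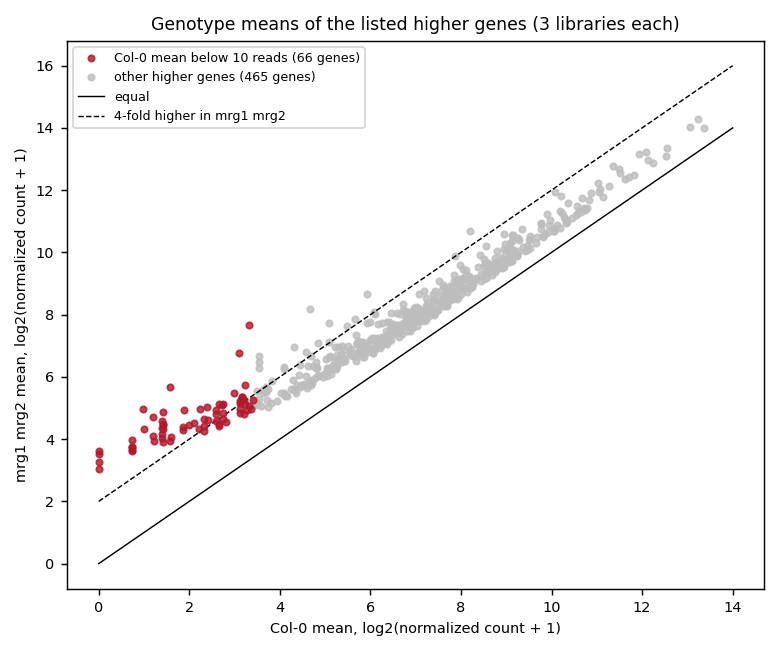
Genotype means of the 531 higher genes as log2(normalized count + 1), mrg1 mrg2 on the y axis and Col-0 on the x axis; red points are the 66 genes and grey points the other 465. All lie above the line of equality, and 52 of the 66 red points lie on or above the dashed line of a 4-fold difference.

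No read was found in any Col-0 library for 4 genes. JAL40 (AT5G28520, chromosome 5, 10492977 to 10495011), encoding a jacalin-related lectin of the mannose-binding lectin family, had 8, 4 and 21 reads in mrg1 mrg2, against 0, 0 and 0 in Col-0. AT3G57100 (chromosome 3, 21133013 to 21134482), encoding a putative transmembrane protein, had 9, 8 and 14 reads in mrg1 mrg2, against 0, 0 and 0 in Col-0. AT2G05370 (chromosome 2, 1960413 to 1961840), annotated as an RNA-dependent RNA polymerase-like protein, had 11, 9 and 6 reads in mrg1 mrg2, against 0, 0 and 0 in Col-0. These 3 genes were at 0 in all Col-0 libraries and weak in the mutant. AT5G25415 (chromosome 5, 8834206 to 8837248), encoding a protein of unknown function, had 6, 10 and 6 reads in mrg1 mrg2, against 0, 0 and 0 in Col-0. Set against a floor of 3 reads over the Col-0 group, and with the mutant counts taken as measured, the values were at least 11.2-fold, 10.4-fold, 8.69-fold and 7.25-fold higher in mrg1 mrg2 for JAL40, AT3G57100, AT2G05370 and AT5G25415. With the counting error of the mutant reads included as well, the lower limits of the exact 95% intervals of the ratio were smaller, at 8.45 for JAL40, 7.91 for AT3G57100, 6.55 for AT2G05370 and 5.47 for AT5G25415. These limits use reads summed over the libraries of a genotype and leave out variation between libraries. The mutant counts themselves were small, between 4 and 21 reads per library. JAL40 was also the least even of the 66 genes among the mutant libraries, with a highest normalized count 5.78 times its lowest.

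Another 4 genes had reads in only 1 of the 3 Col-0 libraries. AT3G60940 (chromosome 3, 22521446 to 22523701), annotated as a putative endonuclease or glycosyl hydrolase, had 24, 24 and 43 reads in mrg1 mrg2, against 3, 0 and 0 in Col-0. AT3G61270 (chromosome 3, 22678034 to 22680509), a gene for an O-glucosyltransferase rumi-like protein, had 18, 13 and 13 reads in mrg1 mrg2, against 0, 0 and 2 in Col-0. AT2G05655 had 18, 14 and 18 reads in mrg1 mrg2, against 0, 0 and 5 in Col-0; it encodes an uncharacterized protein. The first of these 3 had its Col-0 reads in replicate 1, the others in replicate 3. The mitochondrial reading frame ORF110B (ATMG00630) had 13, 20 and 5 reads in mrg1 mrg2, against 2, 0 and 0 in Col-0. From the summed reads, the ratio of mrg1 mrg2 to Col-0 was 30.3 for AT3G60940 (95% exact counting interval 10.05 to 149.7) and 22.0 for AT3G61270 (5.73 to 187.2). For ORF110B it was 19.0 (4.91 to 162.4), so the size of these ratios is known only within wide limits. A single Col-0 library without reads was seen for 13 further genes.

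The 250 bases before the annotated start of the 4 genes without Col-0 reads and of AT1G67105 and AT3G30730, the members with the most mutant reads, are shown because these genes lie at the extremes of the group. They are read 5′ to 3′ on the gene's strand from the TAIR10.1 assembly, with its RefSeq annotation; capitals mark the letters TATAAA, or TTTATA where the match is on the other strand.
JAL40, chr5:10492727-10492976, plus strand: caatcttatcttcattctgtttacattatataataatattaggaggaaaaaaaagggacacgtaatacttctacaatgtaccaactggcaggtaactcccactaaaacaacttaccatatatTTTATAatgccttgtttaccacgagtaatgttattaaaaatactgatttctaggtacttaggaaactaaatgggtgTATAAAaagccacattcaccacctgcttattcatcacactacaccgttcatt
AT3G57100, chr3:21134483-21134732, minus strand: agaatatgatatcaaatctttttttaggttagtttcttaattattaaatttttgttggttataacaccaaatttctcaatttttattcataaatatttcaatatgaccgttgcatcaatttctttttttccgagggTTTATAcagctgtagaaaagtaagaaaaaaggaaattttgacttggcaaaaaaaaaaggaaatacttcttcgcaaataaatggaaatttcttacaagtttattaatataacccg
AT2G05370, chr2:1961841-1962090, minus strand: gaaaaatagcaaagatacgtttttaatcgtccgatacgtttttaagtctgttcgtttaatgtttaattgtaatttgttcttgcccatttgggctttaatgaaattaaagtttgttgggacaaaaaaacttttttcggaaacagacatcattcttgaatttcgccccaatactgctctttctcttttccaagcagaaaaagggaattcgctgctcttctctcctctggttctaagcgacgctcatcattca
AT5G25415, chr5:8833956-8834205, plus strand: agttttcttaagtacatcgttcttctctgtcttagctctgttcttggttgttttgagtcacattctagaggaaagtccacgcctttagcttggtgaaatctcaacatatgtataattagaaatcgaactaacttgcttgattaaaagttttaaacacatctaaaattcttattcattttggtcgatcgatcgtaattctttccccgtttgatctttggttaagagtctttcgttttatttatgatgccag
AT1G67105, chr1:25057229-25057478, plus strand: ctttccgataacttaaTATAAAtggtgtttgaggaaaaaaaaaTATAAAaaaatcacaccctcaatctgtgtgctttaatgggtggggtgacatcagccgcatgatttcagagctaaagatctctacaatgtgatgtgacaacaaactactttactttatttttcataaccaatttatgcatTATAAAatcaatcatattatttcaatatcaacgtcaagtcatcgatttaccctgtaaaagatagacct
AT3G30730, chr3:12358129-12358378, minus strand: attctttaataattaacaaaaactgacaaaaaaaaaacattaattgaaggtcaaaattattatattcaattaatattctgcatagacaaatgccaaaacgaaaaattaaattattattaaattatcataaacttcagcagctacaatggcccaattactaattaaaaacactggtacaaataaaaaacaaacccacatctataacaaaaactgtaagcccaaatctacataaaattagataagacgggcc
JAL40 held TATAAA on its own strand 52 bases before the start, counted to the first T, and AT1G67105 had its nearest one 68 bases before the start. The windows of AT2G05370, AT5G25415 and AT3G30730 held no TATAAA on either strand. Over the 59 nuclear protein-coding members, 32 windows of 250 bases held TATAAA on either strand (54.2%), compared with 54.1% of the other higher protein-coding genes and 47.3% of all 27444 nuclear protein-coding genes. TTGACC was found in 10.2% of member windows and 12.2% of all windows, CACGTG in 5.08% and 6.49%, CCGAC in 6.78% and 12.0%, and AAACCCTA in 1.69% and 4.49%, each searched on both strands. GCCGCC was in 0 of the 59 member windows and in 1.87% of all windows. These shares were not tested, and a match is only a match of letters.

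The noncoding RNA gene AT1G67105 (chromosome 1, 25057479 to 25058264) had the most mutant reads of the 66. It had 157, 221 and 233 reads in mrg1 mrg2, against 10, 9 and 8 in Col-0, or 203 ± 37.4 normalized counts in mrg1 mrg2 and 9.00 ± 1.00 in Col-0 (SD, n = 3 each). Its log2 change in the authors' deposited table was 4.496, with the authors' adjusted p of 4.45e-31. All its mutant libraries lay far above Col-0, the lowest at 16.7 times the highest Col-0 library. Its function is not given in the annotation, which calls it other RNA.

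AT3G30730 (chromosome 3, 12357280 to 12358128) encodes an uncharacterized protein and was the next highest. It had 101, 114 and 106 reads in mrg1 mrg2, against 7, 4 and 12 in Col-0, or 107 ± 1.61 normalized counts in mrg1 mrg2 and 7.62 ± 3.91 in Col-0 (SD, n = 3 each). The mutant libraries were the most even of all 66 genes, with a highest normalized count 1.03 times the lowest. It lies 7.35 kb from QQS (AT3G30720), a gene known to regulate starch content and to be silenced by DNA methylation in some plants, which was also listed as higher. GDU6 (AT3G30725) is the nearest protein-coding gene on that side, 4246 bases away, and was not listed. QQS had 246, 303 and 241 reads in mrg1 mrg2, against 80, 95 and 85 in Col-0, with log2 changes of 3.80 for AT3G30730 and 1.597 for QQS in the authors' deposited table. In Col-0, every library held at least 80 reads of QQS and at most 12 of AT3G30730.

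Of the other members, UBC12 and AT1G35183 had a mutant mean of at least 50 normalized counts. UBC12 (AT3G08700, chromosome 3, 2643144 to 2644775), a probable E2 enzyme that would carry ubiquitin to its targets, had 54, 56 and 41 reads in mrg1 mrg2, against 3, 1 and 2 in Col-0. AT1G35183, annotated as a C3HC4 RING finger protein, had 41, 53 and 63 reads in mrg1 mrg2, against 5, 12 and 8 in Col-0. The remaining 62 genes had a mutant mean below 50, and 22 of them a mean below 20. Per kilobase of exon, the median of the 59 protein-coding members was 17.2 normalized counts in mrg1 mrg2 and 2.31 in Col-0, against 191 and 89.8 for the other 447 higher protein-coding genes. The highest protein-coding member in the mutant, AT3G30730, had 136 normalized counts per kilobase there, below the median of the other higher genes.

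Ubiquitin pathway and F-box genes were 8 of the 66 genes and had a median log2 change of 3.65 in the authors' deposited table. This kind was assigned by hand and includes genes without the word F-box in their product name. That word was in the product name of 3 of the 59 protein-coding members. It was in 5 of the other 447 higher protein-coding genes and in 653 of all 27444 nuclear protein-coding genes. F-box proteins pick the substrates of SCF ubiquitin ligases. TULP5 (AT1G43640), a tubby-like F-box protein, had 12, 27 and 19 reads in mrg1 mrg2, against 0, 1 and 2 in Col-0. The DUF295 genes, a plant family of which many members carry an F-box, were represented by AT1G65760, AT4G22170 and AT5G66830. In the annotation, the product of AT1G65760 is named an ascorbic acid mannose pathway regulator (DUF295). AT1G65760 had 24, 26 and 15 reads in mrg1 mrg2, against 2, 2 and 1 in Col-0. AT4G22170 had 26, 44 and 26 reads in mrg1 mrg2, against 11, 1 and 1 in Col-0, and AT5G66830 had 6, 10 and 19 reads in mrg1 mrg2, against 1, 0 and 1 in Col-0. AT4G22170 owed most of its Col-0 reads to replicate 1, whereas AT5G66830 was uneven among the mutant libraries. AT5G38396, an F-box/RNI-like gene, had 16, 18 and 13 reads in mrg1 mrg2, against 2, 3 and 1 in Col-0. AT5G41830, an RNI-like gene, had 14, 14 and 20 reads in mrg1 mrg2, against 2, 0 and 2 in Col-0. These 8 genes share no chromosome region, lying on chromosomes 1, 3, 4 and 5.

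Receptor kinase, other kinase and lectin genes were 6 of the 66. LECRK51 (AT1G70110) and LECRK21 (AT5G59260) encode lectin-domain receptor kinases, a family of cell surface proteins known from defence. LECRK51 had 12, 10 and 21 reads in mrg1 mrg2, against 0, 2 and 2 in Col-0. LECRK21 had 44, 41 and 28 reads in mrg1 mrg2, against 16, 6 and 3 in Col-0, and Col-0 replicate 1 held its highest Col-0 count. PERK12 (AT1G23540) and PERK13 (AT1G70460) encode proline-rich extensin-like receptor kinases at the cell wall. PERK12 had 15, 34 and 18 reads in mrg1 mrg2, against 2, 3 and 5 in Col-0. PERK13, annotated as root hair specific, had 43, 38 and 21 reads in mrg1 mrg2, against 8, 6 and 3 in Col-0. MAPKKK16 (AT4G26890), a kinase of the MEKK group, had 19, 36 and 27 reads in mrg1 mrg2, against 9, 6 and 10 in Col-0. JAL40, given above, was the member without Col-0 reads. Mutant replicate 2 was highest for PERK12 and MAPKKK16, and replicate 3 for LECRK51, so that no single mutant library carried the group.

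Cytochrome P450 genes, whose products are haem monooxygenases, were 4 of the 66. In the annotation of product names they made up 6.78% of the 59 protein-coding members, against 2.91% of the other 447 higher protein-coding genes and 0.882% of all nuclear protein-coding genes. CYP705A25 (AT1G50560) had 20, 30 and 20 reads in mrg1 mrg2, against 4, 0 and 1 in Col-0. CYP705A13 (AT2G14100) had 14, 19 and 23 reads in mrg1 mrg2, against 3, 1 and 4 in Col-0. Both belong to the CYP705A subfamily, which includes enzymes of triterpene metabolism. CYP71A14 (AT5G24960) had 14, 17 and 12 reads in mrg1 mrg2, against 2, 1 and 3 in Col-0, and CYP77A9 (AT5G04630) had 14, 20 and 34 reads in mrg1 mrg2, against 3, 4 and 8 in Col-0. The lowest mutant library of CYP77A9 was only 1.86 times its highest Col-0 library, which made it one of 5 members below 2 times. CYP705A25 lies 2.97 kb from CYP705A27, another higher gene, with 110, 119 and 89 reads in mrg1 mrg2, against 54, 45 and 65 in Col-0.

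The other enzyme genes, 11 of the 66, had a median log2 change of 3.56 in the authors' deposited table. AT3G60940 and AT3G61028 carry the same product name, putative endonuclease or glycosyl hydrolase, and lie 57.8 kb apart on chromosome 3. AT3G61028 had 41, 18 and 24 reads in mrg1 mrg2, against 2, 3 and 0 in Col-0. Of its exonic stretches of 50 bases, the read length, 20.5% also occur in AT3G60940 and 52.3% occur nowhere else in the genome, so the split of reads between the pair is uncertain. AT1G30740, a berberine-type FAD-binding oxidase gene, had 21, 20 and 22 reads in mrg1 mrg2, against 1, 2 and 2 in Col-0. AT3G46500, a gene of the 2-oxoglutarate and iron-dependent oxygenase superfamily, had 23, 20 and 14 reads in mrg1 mrg2, against 3, 2 and 0 in Col-0. AT1G71690, related to glucuronoxylan methyltransferases of the cell wall, had 27, 14 and 17 reads in mrg1 mrg2, against 4, 0 and 1 in Col-0. These genes had between 0 and 4 reads in any Col-0 library. AT5G44590, a methyltransferase gene, had 16, 19 and 12 reads in mrg1 mrg2, against 4, 0 and 1 in Col-0. UGT71C2 (AT2G29740), a glucosyltransferase of small molecules, had 20, 28 and 14 reads in mrg1 mrg2, against 3, 6 and 3 in Col-0. PGSIP7 (AT4G16600), named as a plant glycogenin-like starch initiation protein, had 19, 22 and 23 reads in mrg1 mrg2, against 5, 4 and 7 in Col-0. Its 3 mutant libraries were close together, unlike those of AT3G61028, which was highest in replicate 1. CAD2 (AT2G21730), a cinnamyl alcohol dehydrogenase homologue of the family that makes lignin monomers, had 18, 27 and 22 reads in mrg1 mrg2, against 8, 6 and 4 in Col-0. CAD2 shares 31.8% of its exonic 50-base stretches with CAD3 (AT2G21890), which was also listed as higher.

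Transcription and RNA regulators were 5 of the 66 and had the smallest median log2 change of the kinds of product compared, 2.19 in the authors' deposited table. PHE2 (AT1G65300), a type I MADS-box gene and, per the annotation, a target of the FIS Polycomb complex, had 29, 42 and 32 reads in mrg1 mrg2, against 7, 9 and 9 in Col-0. Its relative PHE1 (AT1G65330), 10.4 kb away and also listed as higher, had 222, 212 and 195 reads in mrg1 mrg2, against 54, 27 and 18 in Col-0; 8.07% of PHE2's 50-base stretches also occur in PHE1. AT1G59930, annotated as a MADS-box family protein and a maternally expressed imprinted gene, had 14, 21 and 20 reads in mrg1 mrg2, against 3, 4 and 5 in Col-0. Just 50.6% of its 50-base stretches are unique in the genome, and 46.0% occur in the neighbouring AT1G59920, which was not listed. APUM9 (AT1G35730), a Pumilio RNA-binding protein, had 44, 47 and 39 reads in mrg1 mrg2, against 5, 3 and 13 in Col-0. AT2G33710, described as ERF112 in the authors' deposited table, encodes a transcription factor of the ethylene response factor family and had 33, 30 and 33 reads in mrg1 mrg2, against 10, 9 and 8 in Col-0. AT1G43000, of the PLATZ family of zinc-dependent DNA-binding proteins, had 43, 28 and 28 reads in mrg1 mrg2, against 10, 4 and 3 in Col-0. In each of these 5 genes every Col-0 library held at least 3 reads, unlike the 21 members with a Col-0 library at 0.

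Genes placed by hand under membrane, cytoskeleton and wall proteins were 8 of the 66. Not every product name states such a place, and those of AT3G50390 and AT4G07820 do not. SYP24 (AT1G32270), a putative syntaxin of vesicle fusion, had 19, 37 and 20 reads in mrg1 mrg2, against 2, 0 and 2 in Col-0. KIN14P (AT1G73860), a kinesin motor protein, had 30, 33 and 29 reads in mrg1 mrg2, against 2, 8 and 1 in Col-0. TET9 (AT4G30430), a tetraspanin, had 27, 32 and 44 reads in mrg1 mrg2, against 6, 6 and 11 in Col-0. The mutant libraries of KIN14P were nearly level, with a highest to lowest ratio of 1.056. GRP18 (AT5G07520), a glycine-rich protein gene that the annotation describes as expressed only in flowers, had 19, 24 and 15 reads in mrg1 mrg2, against 7, 3 and 1 in Col-0. AT4G07820, of the family of pathogenesis-related 1 proteins, had 24, 29 and 10 reads in mrg1 mrg2, against 3, 1 and 5 in Col-0. AT1G05220, a putative transmembrane protein gene, had 29, 45 and 37 reads in mrg1 mrg2, against 12, 7 and 4 in Col-0. AT3G50390, a WD40 repeat gene, had 27, 39 and 23 reads in mrg1 mrg2, against 8, 10 and 8 in Col-0. The other member of the 8 was AT3G57100, one of the 4 without Col-0 reads. A further 2 genes are named for defence-related domains: AT3G16900, a LURP-one-related gene, had 32, 36 and 22 reads in mrg1 mrg2, against 2, 4 and 2 in Col-0. The HR-like lesion-inducing gene AT3G23180 had 25, 20 and 25 reads in mrg1 mrg2, against 6, 3 and 4 in Col-0.

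Proteins of unknown function were encoded by 15 of the 66 genes, the largest kind. The kind was assigned by hand and includes AT1G10220, named ZCF37 in the annotation, and AT1G44414, named a zinc-ribbon domain protein. Product names with the word uncharacterized or hypothetical made up 22.0% of the 59 protein-coding members, 11.6% of the other higher protein-coding genes and 10.9% of all nuclear protein-coding genes. AT3G30305 had 42, 47 and 31 reads in mrg1 mrg2, against 12, 6 and 6 in Col-0. AT1G33102 had 32, 40 and 31 reads in mrg1 mrg2, against 12, 2 and 2 in Col-0, and Col-0 replicate 1 gave most of its Col-0 reads. AT4G29550 had 32, 46 and 34 reads in mrg1 mrg2, against 10, 11 and 8 in Col-0. AT4G29550 was the member closest to the limit, with a Col-0 mean of 9.67 raw reads. Lower levels were found for AT1G10220, with 18, 15 and 4 reads in mrg1 mrg2, against 1, 0 and 1 in Col-0. AT1G27670 had 15, 12 and 7 reads in mrg1 mrg2, against 1, 0 and 1 in Col-0. AT1G13530 had 22, 18 and 20 reads in mrg1 mrg2, against 5, 1 and 2 in Col-0. AT1G10220 was uneven, its lowest mutant library being replicate 3, while AT1G13530 was level. AT1G44414 had 37, 35 and 19 reads in mrg1 mrg2, against 7, 9 and 12 in Col-0. AT2G10930 had 26, 39 and 26 reads in mrg1 mrg2, against 10, 6 and 7 in Col-0. AT3G26235 had 32, 30 and 27 reads in mrg1 mrg2, against 4, 4 and 7 in Col-0. AT1G44414 had the smallest log2 change of all members, 1.70 in the authors' deposited table, and the narrowest gap, its lowest mutant library being 1.65 times its highest Col-0 library. AT5G45460 had 36, 18 and 28 reads in mrg1 mrg2, against 9, 6 and 2 in Col-0. AT5G60260 had 29, 22 and 32 reads in mrg1 mrg2, against 8, 9 and 6 in Col-0. The last gene of unknown function, AT4G37295, is given below with its position.

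**Figure D3:**
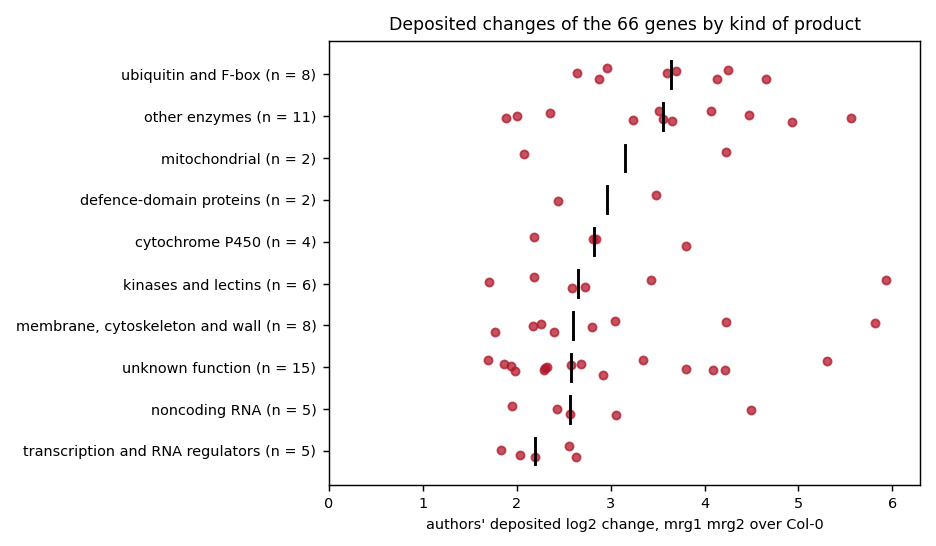
Log2 change of mrg1 mrg2 over Col-0 in the authors' deposited table for each of the 66 genes, grouped by kind of product, with a bar at the median. Medians run from 2.19 for transcription and RNA regulators to 3.65 for ubiquitin and F-box genes, and most kinds of product overlap. The 4 genes without Col-0 reads are plotted at their deposited values, 5.30 to 5.93, although their counts give only a lower bound.

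Besides AT1G67105, the noncoding members were a tRNA gene and 3 other RNA genes. AT2G05914, an RNA gene that overlaps the protein-coding AT2G05915 by 450 bases on the opposite strand, had 16, 30 and 26 reads in mrg1 mrg2, against 1, 5 and 6 in Col-0. AT3G07675 had 9, 17 and 16 reads in mrg1 mrg2, against 0, 2 and 3 in Col-0, and AT4G04015 had 13, 23 and 26 reads in mrg1 mrg2, against 6, 6 and 4 in Col-0. The serine tRNA gene AT2G07754 had 25, 38 and 19 reads in mrg1 mrg2, against 5, 7 and 3 in Col-0. Not 1 of its 50-base stretches is unique (0%): each also occurs in 2 mitochondrial serine tRNA genes and in AT2G07759, so its reads cannot be placed on chromosome 2. The mitochondrial reading frame ORF315 (ATMG00040) had 29, 31 and 12 reads in mrg1 mrg2, against 7, 5 and 5 in Col-0. ORF315 and ORF110B were not matched to the annotation used here, and no position is given for them.

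By their AGI codes, which give the chromosome and the order along it, 22 of the 64 nuclear members are on chromosome 1, 9 on chromosome 2, 13 on chromosome 3, 8 on chromosome 4 and 12 on chromosome 5. The share on chromosome 1 was 34.4%, against 31.25% of the other higher genes and 25.6% of all annotated nuclear genes. The codes of AT2G07754, AT3G07675 and AT4G04015 do not fall between those of their protein-coding neighbours: AT3G07675, for example, lies between AT3G47220 and AT3G47250 (chromosome 3, 17398671 to 17398972). The strand in the authors' table matched the annotation for all 64.

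Some members lay in stretches of chromosome rich in pseudogenes. Within 100 kb on each side, 8 of the 59 nuclear protein-coding members (13.6%) had more annotated pseudogenes than protein-coding genes, compared with 12 of the other 447 higher protein-coding genes (2.68%) and 809 of all 27444 (2.95%). No test was made of this difference, and weakly expressed genes outside the lists have no counts here to compare with. The 8 genes were APUM9, AT1G43000, AT2G10930, CYP705A13, AT3G30305, AT3G30730, AT4G07820 and JAL40. AT3G30730 had 7 protein-coding genes and 37 pseudogenes around it, AT4G07820 had 6 and 33, and AT2G10930 had 16 and 38. The 8 genes come from all 5 nuclear chromosomes.

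**Figure D4:**
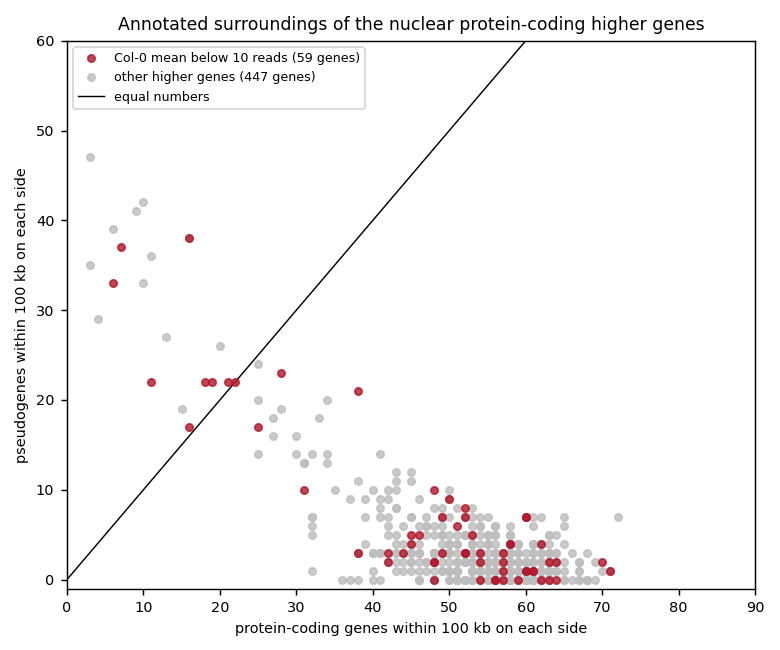
Numbers of protein-coding genes (x axis) and of pseudogenes (y axis) within 100 kb on each side of each nuclear protein-coding higher gene; red points are the 59 members and grey points the other 447. Most points lie at the lower right, and 8 red and 12 grey points lie above the line of equal numbers.

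Members were somewhat shorter at the median than other genes. The median summed exon length of the protein-coding members was 1308 bases, against 1601 in the other higher genes and 1552 in all nuclear protein-coding genes, and the median number of exons was 3, 3 and 4. A single exon was annotated for 28.8% of members, 31.3% of the other higher genes and 18.9% of all. Exonic 50-base stretches were less than 90% unique in 5 of the 59, namely CYP705A25, AT1G59930, CAD2, AT3G60940 and AT3G61028, and in 18 of the other 447. Another annotated gene overlaps 17 of the 64 nuclear members, on the opposite strand for 14. None of the overlapping genes was listed. Overlaps were not counted for the other higher genes or for all genes, so nothing is read from these numbers. The libraries were stranded, but the labels do not say whether strand was used in counting, and without strand the reads of a gene and of its antisense partner cannot be told apart. Examples are APUM9, which overlaps ANNAT1 by 103 bases, and AT5G60260, which overlaps AT5G60250 by 629 bases.

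Listed neighbours were found beside 5 members. The nearest protein-coding gene on one side was listed as higher for KIN14P (COL7), AT2G10930 (AT2G10931), UGT71C2 (UGT71C1), AT3G26235 (CYP71B24) and AT4G37295 (AT4G37290), which is 8.47% of the protein-coding members, against 8.95% of the other higher genes and 3.82% of all nuclear protein-coding genes. UGT71C1, of the same family as UGT71C2, had 37, 57 and 49 reads in mrg1 mrg2, against 13, 19 and 25 in Col-0. COL7 had 361, 587 and 269 reads in mrg1 mrg2, against 96, 230 and 68 in Col-0, a pattern in which replicate 2 of both genotypes was highest. KIN14P was level among the mutant libraries, but replicate 2 was also its highest Col-0 library, with 2, 8 and 1 reads. No 2 members were direct neighbours.

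AT4G37295 lies 3.75 kb from MRG1, the mutated gene, and the nearest listed genes on either side of it were higher as well. It had 51, 37 and 30 reads in mrg1 mrg2, against 4, 8 and 12 in Col-0. AT4G37290, on the side of MRG1, had 86, 75 and 71 reads in mrg1 mrg2, against 12, 14 and 6 in Col-0. On the other side, the nearest protein-coding gene, MEE59 (AT4G37300), lies 387 bases away and was not listed. CYP81H1, 1.79 kb away on that side, had 1992, 2599 and 2526 reads in mrg1 mrg2, against 1434, 1331 and 1734 in Col-0. The log2 changes were 2.30, 2.86 and 0.66 for AT4G37295, AT4G37290 and CYP81H1 in the authors' deposited table. An effect of the mrg1 allele on its surroundings and an effect of losing the protein cannot be told apart in these libraries. The member nearest to MRG2 on chromosome 1 was AT1G05220, 910 kb away.

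Lists of genes of other organs and states held few members. A list of 7 genes, drawn up as imprinted or methylation-silenced, held 3 listed as higher (PHE1, PHE2 and QQS) and 0 as lower. Its 1 member was PHE2, but per the annotation only PHE1 of this pair is regulated by imprinting. The member AT1G59930, annotated as imprinted, was not on the list. Of the genes inferred to have been tested, 2.31% were listed as higher. The list was chosen with earlier results of these data known, so nothing is read from its count. Of 3 genes of the glyoxylate cycle and seedling lipid use, MLS was higher with 96, 92 and 75 reads in mrg1 mrg2, against 14, 10 and 8 in Col-0, just above the limit, and the other 2 were not listed. None of the 12 seed and embryo, 10 root, 8 pollen and sperm, 7 floral organ identity or 3 leaf photosynthesis genes was listed in either direction. The deposited tables give counts for listed genes alone, so the levels of these markers, leaf markers included, were not checked.

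Around the limit of 10 raw reads the values ran on without a gap. The members with the highest Col-0 means were AT4G29550 at 9.67, AT1G44414 at 9.33, and AT1G67105 and AT2G33710 at 9. Just outside were AT5G40800 and AT3G02620, both at 10, and AT5G37940 and AT4G11543 at 10.3. Mutant means of these 4 outsiders were 33.3, 37.3, 45.3 and 34.7 raw reads, in the range of most members near the limit, from which AT1G67105 with 204 stood apart. In 18 of the 66 members at least 1 Col-0 library held 10 reads or more: replicate 1 for 10 genes, replicate 2 for 3 and replicate 3 for 6.

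Agreement among the mutant libraries varied between members. The variance over the 3 mutant libraries was 1.34 times the mean at the median member and 4.67 times the mean at the median of the other higher genes, whose counts were higher. It exceeded the mean, the value that counting error alone gives on average, in 40 of the 66 members and in 383 of the other 465. Replicate 1 was the highest mutant library for 24 members, replicate 2 for 24 and replicate 3 for 18. The highest mutant library exceeded 2 times the lowest in 15 of the 66 genes, against 15 of the other 465. The widest ratios were those of JAL40 (5.78), AT1G10220 (4.59), ORF110B (3.63), AT5G66830 (3.10) and AT4G07820 (2.63), all with mutant libraries of at most 29 reads.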

How the data were processed

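RNA of 3 mrg1 mrg2 and 3 Col-0 samples was sequenced as stranded, rRNA-depleted libraries with single reads of 50 bp, per the labels' protocols. The submitters' processing notes name TAIR10 and DESeq2; no aligner or counting tool is named in the sources used here. Raw counts per gene and library, log2 fold changes of mrg1 mrg2 over Col-0, and p-values with adjusted p-values (FDR) were deposited by the authors, per the file headers, for listed genes alone, so library totals and depth are unknown.

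Members, gene lists and kinds of product (assigned by hand from product names) were chosen with earlier results of these data known. Size factors of 0.955 to 1.07 were fitted to the deposited fold changes over 435 genes with a mean of at least 50 counts, leaving a residual SD of 0.000889 (log2), whereas equal factors left 0.00935; the fit was tested on simulated data. The count of tested genes, 22995, was inferred from the p-values and adjusted p-values. Own log2 changes use a pseudocount of 1. No test between genotypes was run, because the contrast chose the members and a fit across all genes would need the unlisted ones. Same-numbered libraries deviated together over 427 listed genes (r = 0.35, 0.54 and 0.29), so the numbers were taken to pair them; this is a hint from the data, and genes are not independent. Replicates differed by 11.8 to 33.9 times counting error (chi-square per degree of freedom), so none was a repeat deposit.

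Genes named by rule had no Col-0 reads, the 12 largest changes or mutant counts, a family shared with another member, a listed neighbour, a mutated gene within 1 Mb, a Col-0 mean near the limit, a noncoding or organellar origin, a place on a list, or the 5 most or least even mutant libraries; other members are given for completeness. Positions and promoters come from TAIR10.1 (RefSeq), which matched 64 of 66 members by code. Uniqueness is the share of exonic stretches of 50 bases found once in the genome. Software was Python 3.11.15, numpy 2.4.6, pandas 2.3.3 and scipy 1.17.1. Intervals and floors cover counting error only.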

Additional observations from a re-analysis of the deposited data

How the results depend on the processing

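The number of members was 66; it was 68 with normalized counts, 68 with the median and 48 with the maximum of the Col-0 libraries, 38 with a limit of 5 and 98 with a limit of 20; without each Col-0 library in turn it was 65 to 69. The median log2 change of 2.47 became 2.60 with a pseudocount of 0.5, 1.67 with a pseudocount of 5, 2.81 in the authors' deposited table and 2.26 over the 44 members with a mutant mean of at least 20; these differ by construction. It was 2.47 with equal size factors, 2.54 with replicate number as a block, and 2.36 (without Col-0 replicate 2) to 2.52 without each library in turn. The count of members at least 4-fold higher, 52, was 12 with a pseudocount of 5 and 49 to 57 in all other settings run, with 52 under the replicate block. The libraries of mrg1 mrg2 and Col-0 stayed apart for all 66 genes with equal size factors and without each library in turn, and within same-numbered pairs all 66 were higher in mrg1 mrg2. The 8 members with more pseudogenes than protein-coding genes nearby were 6 with a window of 50 kb and 8 with 250 kb on each side, alternatives chosen after seeing the data; of all nuclear protein-coding genes the share was 2.90% and 2.97%. Counts of a few reads in Col-0 limit every fold change given.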
